A study of Mus musculus with 16 samples.

Results

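The proteasome genes on these arrays were 46 mouse genes, read by 58 probe sets, out of 8251 genes with a probe set of their own. They were chosen by name: every probe set whose single annotated symbol began with Psma, Psmb, Psmc, Psmd, Psme, Psmf or Psmg followed by a digit, with each gene read by its brightest probe set. They comprised 7 alpha and 7 beta subunits of the core particle, 3 interferon-inducible beta subunits (Psmb8, Psmb9 and Psmb10), 6 ATPases and 11 non-ATPase subunits of the regulatory particle, 3 activators (Psme1, Psme3 and Psme4) and 7 assembly factors. The other 2, Psmc3ip and Psme3ip1, matched the rule by name and are not subunits: they encode proteins that bind a proteasome ATPase or activator. A further 2 probe sets named several Psm genes and were left out, and Psmb11, the catalytic subunit of thymic cortical epithelium, was not analysed here.

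The proteasome degrades proteins tagged with ubiquitin. Its core is a barrel of alpha and beta rings in which Psmb5, Psmb6 and Psmb7 carry the proteolytic sites, and a regulatory particle of Psmc ATPases and Psmd subunits binds, unfolds and feeds in the substrate. Interferon induces Psmb8, Psmb9 and Psmb10, which take the places of Psmb5, Psmb6 and Psmb7 in newly made cores, and Psme1, a subunit of an activator ring. The resulting immunoproteasome is common in lymphoid cells, where its peptides load MHC class I molecules.

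Fetal thymus lobes were kept in organ culture, and RNA of their CD4+CD8+ (double-positive) thymocytes was hybridised to 16 Affymetrix arrays. The groups were BDC2.5/NOD cells at 16 h of peptide (n = 3), BDC2.5/NOD cells without peptide (n = 3), wild-type NOD cells (n = 2), BDC2.5/B6g7 cells at 16 h of peptide (n = 3), BDC2.5/B6g7 cells without peptide (n = 3) and wild-type B6g7 cells (n = 2). The BDC2.5 transgenes encode the T cell receptor of a CD4 clone that causes diabetes. NOD is a strain with spontaneous autoimmune diabetes, and B6g7 is C57BL/6 with the MHC haplotype of NOD. Peptide and dose are not named in the labels, which also leave it unsaid whether wild-type cultures received any. Whether replicates are separate animals is not stated either, so the p-values may measure only technical spread. In bulk RNA, fewer cells of a type and less RNA per cell cannot be told apart.

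Median intensity per array lay between 54.7 and 59.1. Of 13 markers of double-positive thymocytes 10 were measured, none below the median of all probe sets. Arrays numbered 3 in the BDC2.5 groups and 2 in the wild-type groups stood apart from the other 10: they held the high end of the first principal component, which took 57.9% of the variance among the 3000 probe sets that varied most. Their actin 3′ minus 5′ difference was 1.69 ± 0.25 on the log2 scale (SD, n = 6), against 2.67 ± 0.32 in the others (SD, n = 10), and in 6 of 6 groups no other array had a lower one. Replicates of proteasome genes were further apart than those of most genes: the median within-group SD was 0.36 log2 units over the 46 genes, against 0.20 over all 8251. These sets were not matched for intensity, and only 4 of the 46 genes lay below the median of all probe sets.

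**Figure D1:**
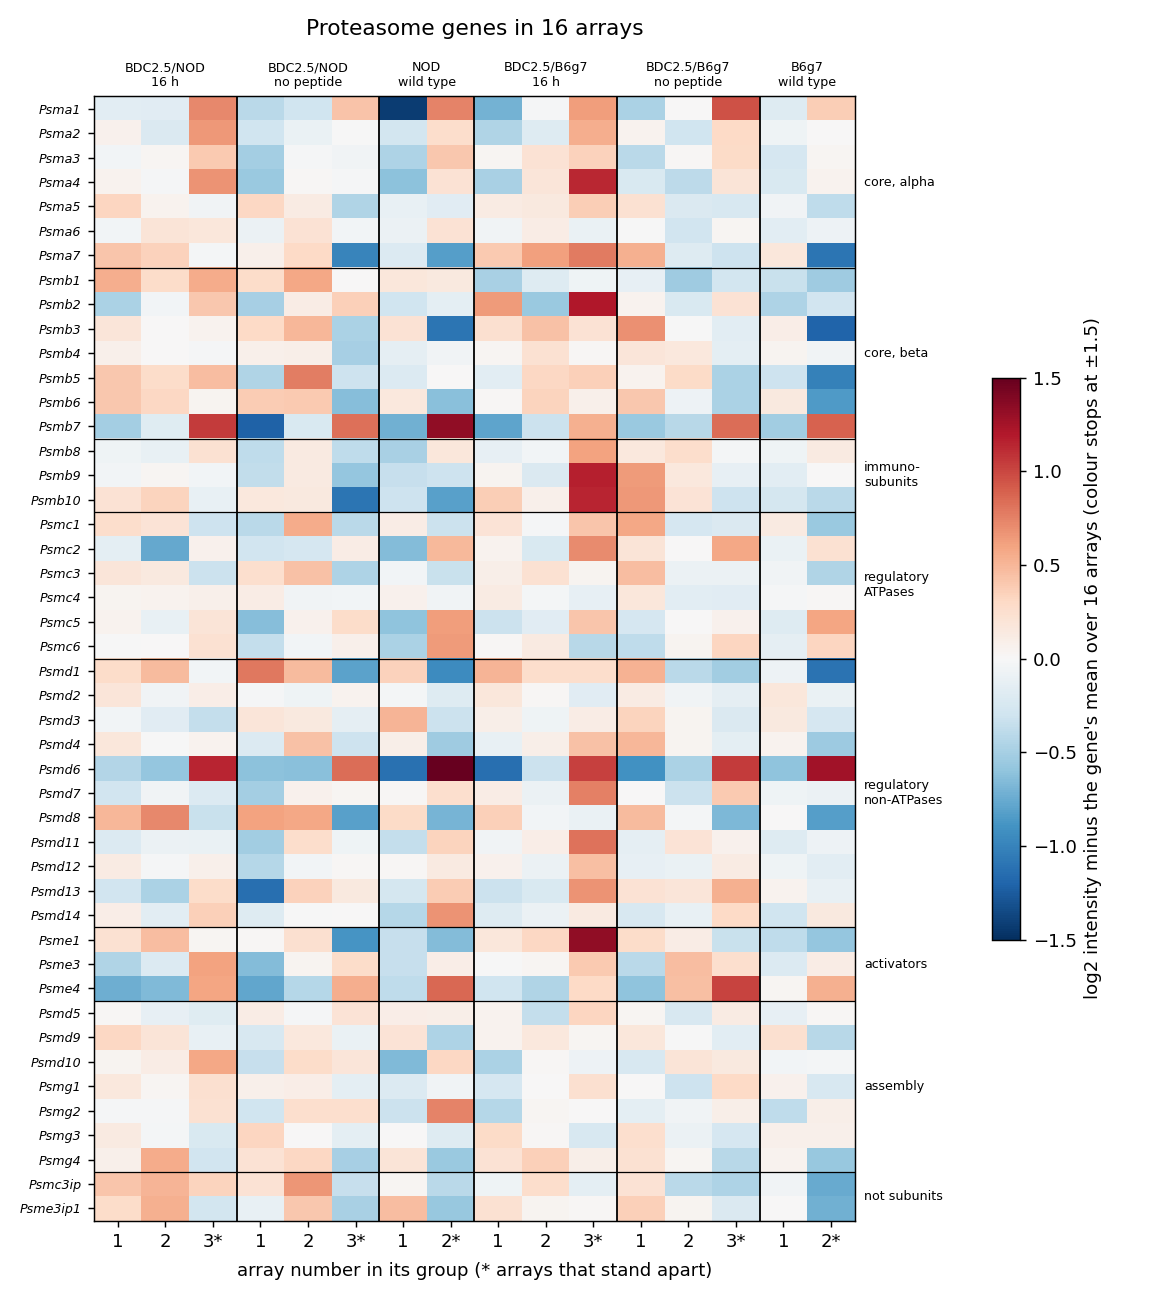
Log2 intensity of the 46 genes (rows, by role) in the 16 arrays (columns, by group), each as the difference from that gene's mean over all arrays. Psmd6 and Psmb7 are high in the starred columns, the 6 arrays that stood apart, while Psmb9, Psmb10 and Psme1 are highest in array 3 of BDC2.5/B6g7 at 16 h.

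The study was of negative selection, and the first comparison was of cells at 16 h of peptide with cells without it. None of the 46 genes passed an adjusted p of 0.05 in limma. In BDC2.5/NOD cells 0 genes were called, against 0% of all probe sets tested. In BDC2.5/B6g7 cells 0 were called, against 0.00805% of all, and for the mean of both strains 0, against 0.0242%. At an unadjusted p under 0.05 the proteasome count was 0 in BDC2.5/NOD, against 1.54% of all genes, 0 in BDC2.5/B6g7, against 3.73%, and 1 for the mean, against 3.84%. That gene was Psme1. The strain difference of the response called 0 members, against 0% of all, and 0 at an unadjusted p under 0.05, against 1.03%.

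By its brightest probe set, no proteasome gene had its 3 peptide arrays all above or all below its 3 arrays without peptide, in either strain. In BDC2.5/NOD this held for 2.27% of all genes upward and 3.25% downward, and in BDC2.5/B6g7 for 3.83% upward and 3.05% downward. The fitted values leaned upward: 37 of 46 genes were higher with peptide in the mean of both strains (80.4%), against 43.0% of all genes, with a median log2 difference of 0.09 against -0.02 over all genes. Without the 6 arrays that stood apart the lean was smaller: 25 genes were higher and 21 lower with peptide, and the median was 0.03. The sum of the 10 double-positive markers moved with peptide: it was 8973 to 9859 in BDC2.5/NOD at 16 h, against 10774 to 15106 without peptide, and 6827 to 11966 in BDC2.5/B6g7 at 16 h, against 12905 to 13645 without peptide. Its part in the lean was not tested.

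By role, in the mean of both strains, the lean was most even in the core particle. All 7 alpha genes had a higher fitted mean with peptide, with a median log2 difference of 0.20, as did all 7 constitutive beta genes, with a median of 0.12. Neither set held a gene with an unadjusted p under 0.05. For the beta genes this evenness depended on the arrays used. Over the 25 alternative fits described below, the mean peptide difference fell to -0.014 for Psmb1, -0.009 for Psmb6 and -0.165 for Psmb7. That of Psmb5 stayed at 0.041 or above. In the regulatory particle 4 of 6 ATPases and 9 of 11 non-ATPase subunits were higher, with medians of 0.05 and 0.07, and among the assembly factors 3 of 7 were higher, with a median of -0.003. Single strains were less even. In BDC2.5/B6g7 alone 5 of 7 alpha and 6 of 7 constitutive beta genes were higher, and in BDC2.5/NOD 7 and 5.

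Psma7 and Psma4, alpha ring subunits picked here for the size of their differences, show the spread behind these medians. Psma7 read 713, 680 and 526 in BDC2.5/NOD at 16 h, against 563, 659 and 270 without peptide. In BDC2.5/B6g7 it read 705, 823 and 921 at 16 h, against 777, 468 and 432 without peptide. The peptide arrays overlapped those without peptide in both strains, and the mean difference was 0.52 ± 0.27 (log2, SE; adjusted p = 0.998 in limma). Psma4 differed by 0.42 ± 0.26 (adjusted p = 0.998), with its highest reading, 1074, in array 3 of BDC2.5/B6g7 at 16 h.

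Among the constitutive catalytic subunits, Psmb5, which carries the chymotrypsin-like site, averaged 378 ± 26 in BDC2.5/NOD at 16 h and 313 ± 156 without peptide, and 330 ± 61 in BDC2.5/B6g7 at 16 h and 288 ± 74 without peptide (SD, n = 3 each). Its mean difference was 0.29 ± 0.22 (log2, SE), and its other probe set gave -0.08 ± 0.11. Psmb6, of the caspase-like site, differed by 0.20 ± 0.24, and Psmb7, of the trypsin-like site, by 0.09 ± 0.47. The SE of Psmb7 followed its replicates: it read 205, 257 and 601 in BDC2.5/NOD at 16 h, against 125, 249 and 516 without peptide, so that array 3 was the highest in both groups.

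The interferon-inducible subunits overlapped between peptide states as well. Psmb8 read 1590, 1541 and 1945 in BDC2.5/NOD at 16 h, against 1276, 1834 and 1279 without peptide. In BDC2.5/B6g7 it read 1530, 1621 and 2539 at 16 h, against 1854, 2003 and 1630 without peptide. Thus 2 of the 3 B6g7 peptide arrays lay below all 3 arrays without peptide, and array 3 lay above them. Psmb9 read 429, 450 and 427 in BDC2.5/NOD at 16 h, against 341, 484 and 295 without peptide. In BDC2.5/B6g7 it read 452, 380 and 986 at 16 h, against 686, 491 and 404 without peptide. Here too a single array of the B6g7 peptide group was above all of its controls. Psmb10 read 581, 628 and 462 in BDC2.5/NOD at 16 h, against 556, 553 and 234 without peptide. In BDC2.5/B6g7 it read 644, 525 and 1097 at 16 h, against 782, 575 and 403 without peptide. The mean peptide differences were 0.12 ± 0.17 for Psmb8, 0.18 ± 0.22 for Psmb9 and 0.38 ± 0.26 for Psmb10 (log2, SE; adjusted p = 0.998 for each in limma).

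Psme1, whose product forms the interferon-inducible activator ring on the ends of the core, was the member with an unadjusted p under 0.05. It read 777, 917 and 675 in BDC2.5/NOD at 16 h, against 671, 785 and 358 without peptide. In BDC2.5/B6g7 it read 743, 820 and 1663 at 16 h, against 801, 717 and 527 without peptide. The peptide arrays overlapped the others in both strains, and the mean difference was 0.52 ± 0.23 (log2, SE; adjusted p = 0.998 in limma). It was 0.33 (adjusted p = 1) without array 3 of BDC2.5/B6g7 at 16 h and 0.13 (adjusted p = 1) without the 6 arrays that stood apart. The other Psme1 probe set, with readings between 11.5 and 14.3, gave -0.04 ± 0.05. Psme3, the nuclear activator, differed by 0.06 ± 0.21, and Psme4, an activator known from spermatogenesis and DNA repair, by -0.24 ± 0.34.

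**Figure D2:**
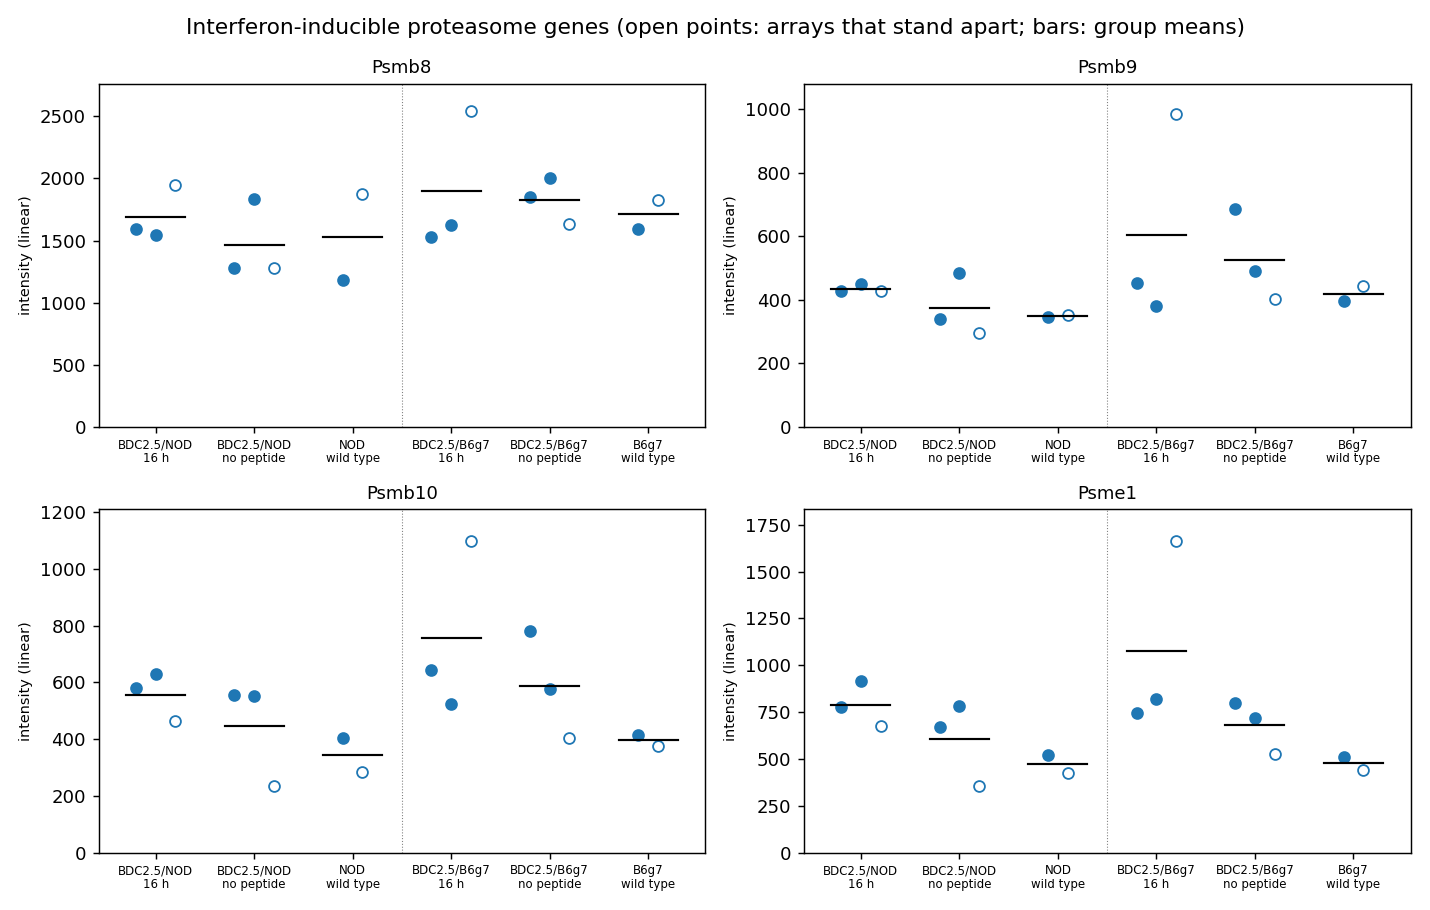
Linear intensity of Psmb8, Psmb9, Psmb10 and Psme1 in each array (points) of the 6 groups, with group means as bars and open points for the arrays that stood apart. In each panel the highest point is array 3 of BDC2.5/B6g7 at 16 h, at 2539, 986, 1097 and 1663.

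That array set the size of the B6g7 response of these genes. With it, the fitted peptide differences in BDC2.5/B6g7 were 0.02 for Psmb8, 0.11 for Psmb9, 0.34 for Psmb10 and 0.58 for Psme1. Without it they were -0.21, -0.31, 0.04 and 0.22. Of the 46 proteasome genes, 14 had their highest of 16 readings in it (30.4%), against 10.1% of all genes. Beside the 4 inducible genes these were Psma4, Psma5, Psma7, Psmb2, Psmc2, Psmd5, Psmd7, Psmd11, Psmd12 and Psmd13.

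A list of 27 measured interferon and antigen processing genes stood highest in the same array: 21 of 27 (77.8%) had their top reading there, and the list's median lay 1.41 log2 units above the mean of arrays 1 and 2 of its group. Irf1, an interferon-induced transcription factor, read 1149 there, against 177 to 525 in the other 15 arrays. Gbp2, an interferon-inducible GTPase, read 1423, against 60.5 to 339. Tap1, the peptide transporter subunit, read 497, against 109 to 279, and H2-K1, a class I heavy chain, 1082, against 164 to 385. Ifng itself read 10.7, against 9.57 to 11.8. These readings lie near the smallest intensity on the arrays, 7.77, so a change of Ifng could not be read from them. Among 22 proteasome cofactors, 2 were highest in that array (9.09%).

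Marker sums of other cells moved with it. The 10 double-positive thymocyte markers summed to 6827 in that array, the lowest of 16, against 8234 to 20249 in the others. The 13 myeloid and dendritic markers summed to 1871, the highest, against 700 to 1795 in the others, where 1795 was array 2 of the same group. Of these 13 markers 4 were highest in that array, and Ctss read 697, Lyz2 57.9 and Csf1r 38.8, while C1qb, at 26.7, and Cd14, at 94.5, had their lowest of 16 readings there. The 5 NK and innate lymphocyte markers summed to 705, also the highest, against 239 to 618, with Gzma at 558 and Ncr1 at 11.5. The sum of 9 thymic epithelium markers ranked 3 of 16, those of B cell, mesenchyme and endothelium, and erythroid markers ranked 9, 13 and 12, and no marker was at 0. Its actin difference was 1.66, against a mean of 2.47 in arrays 1 and 2 of its group. The part of other cells or of RNA quality in these readings was not tested.

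Promoter letters of the inducible genes were read from RefSeq (GRCm38.p6), from 250 bases before to 50 bases after each start. This covered 39 of the 46 genes in 42 promoters. The interferon-stimulated response element was searched as GAAANNGAAA and the gamma-activated site as TTCNNNGAA, on both strands. The first stood in 5 of 42 member promoters (11.9%), those of Psmb3, Psmd4, Psmd9, Psme1 and Psmg4, against 3.44% of 32851 promoters. The second stood in 3 of 42 (7.14%), those of Psmb8, Psmd2 and Psmg1, against 8.3%. Psmb9 and Psmb10, highest in the array above like Psmb8 and Psme1, held neither. The matches of Psme1 and Psmb8 are shown because both genes were highest in that array. That of Psme1 lies just past its start at chr14:55578493-55578522, plus strand, and that of Psmb8 at chr17:34198083-34198121, plus strand, with the match in capitals (for Psme1 on the opposite strand).
Psme1: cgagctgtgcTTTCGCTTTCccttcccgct
Psmb8: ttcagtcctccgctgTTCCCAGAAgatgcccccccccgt

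Psmb9 and Tap1 are neighbours on opposite strands in the MHC with 225 bases between their starts, so one stretch of sequence lies upstream of both. It is given in the sense of Tap1, at chr17:34187331-34187555, plus strand, because both genes had their highest reading in the same array. It holds no match of either interferon motif and 1 GC box (GGGCGG on either strand, in capitals), a motif in 23 of 42 member promoters (54.8%) and 35.7% of all.
Psmb9 and Tap1: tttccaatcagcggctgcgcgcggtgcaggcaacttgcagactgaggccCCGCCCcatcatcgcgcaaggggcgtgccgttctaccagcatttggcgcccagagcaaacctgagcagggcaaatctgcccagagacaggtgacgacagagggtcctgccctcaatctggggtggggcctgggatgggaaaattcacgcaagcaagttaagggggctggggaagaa

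A further motif, the antioxidant response element bound by the factors that raise proteasome genes under stress (searched as TGACNNNGC on both strands), stood in 6 of 42 member promoters (14.3%), against 12.4% of all: those of Psmb5, Psmb6, Psmc6, Psmd9, Psmd12 and Psme4. A match is a string of letters and not a measured site. All letters are those of the reference genome. The MHC haplotype that NOD and B6g7 share was not read, and its letters at Psmb8, Psmb9 and Tap1 may differ.

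The second question was whether NOD and B6g7 thymocytes differed. In each culture setting 0 of 46 proteasome genes were called by limma. At 16 h this stood against 0.491% of all probe sets, without peptide against 0.266% and in wild-type cells against 0.0886%. At an unadjusted p under 0.05 the count was 1 in each setting, against 5.67% of all genes at 16 h, 3.42% without peptide and 2.04% in wild-type cells. In all 3 settings that gene was Psmb1, a non-catalytic beta subunit of the core.

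Psmb1 was higher in NOD. It read 1128, 935 and 1137 in BDC2.5/NOD at 16 h, against 555, 678 and 743 in BDC2.5/B6g7 at 16 h. Without peptide it read 937, 1158 and 782 in BDC2.5/NOD, against 711, 536 and 642 in BDC2.5/B6g7. In wild-type cells it read 870 and 859 in NOD, against 617 and 534 in B6g7. Each of the 8 NOD arrays was above each of the 8 B6g7 arrays, which held for 1 of 46 proteasome genes and for 0.339% of all genes. The reverse, each NOD array below each B6g7 array, held for 0 of 46, against 0.461%.

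The NOD minus B6g7 difference of Psmb1 was 0.70 ± 0.20 at 16 h (log2, SE; adjusted p = 0.29 in limma), 0.60 ± 0.20 without peptide (adjusted p = 0.718) and 0.59 ± 0.24 in wild-type cells (adjusted p = 1). A comparison added after these values were seen averaged the 3 settings and gave 0.63 ± 0.12, a fold of 1.55 (adjusted p = 0.0176). Psmb1 was the 1 proteasome gene called there, against 1.3% of all probe sets, and the 1 with an unadjusted p under 0.05, against 6% of all genes. The call was lost without array 1 of wild-type NOD (0.63, adjusted p = 0.054), without array 2 of wild-type B6g7 (0.59, adjusted p = 0.0784) and without the 6 arrays that stood apart (0.66, adjusted p = 0.0974).

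The probe sets of Psmb1 differed in the size of the strain difference. The next brightest read 612 to 769 in NOD (median 712), against 541 to 645 in B6g7 (median 610), so that the strains overlapped. Its averaged difference was 0.22 ± 0.09 (adjusted p = 0.702 in limma). The dimmest read 17.2 to 21.8 in NOD, against 16.0 to 23.4 in B6g7, with a difference of -0.08 ± 0.08. With the mean of the gene's probe sets in the fit, the averaged difference was 0.26 (adjusted p = 0.281).

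**Figure D3:**
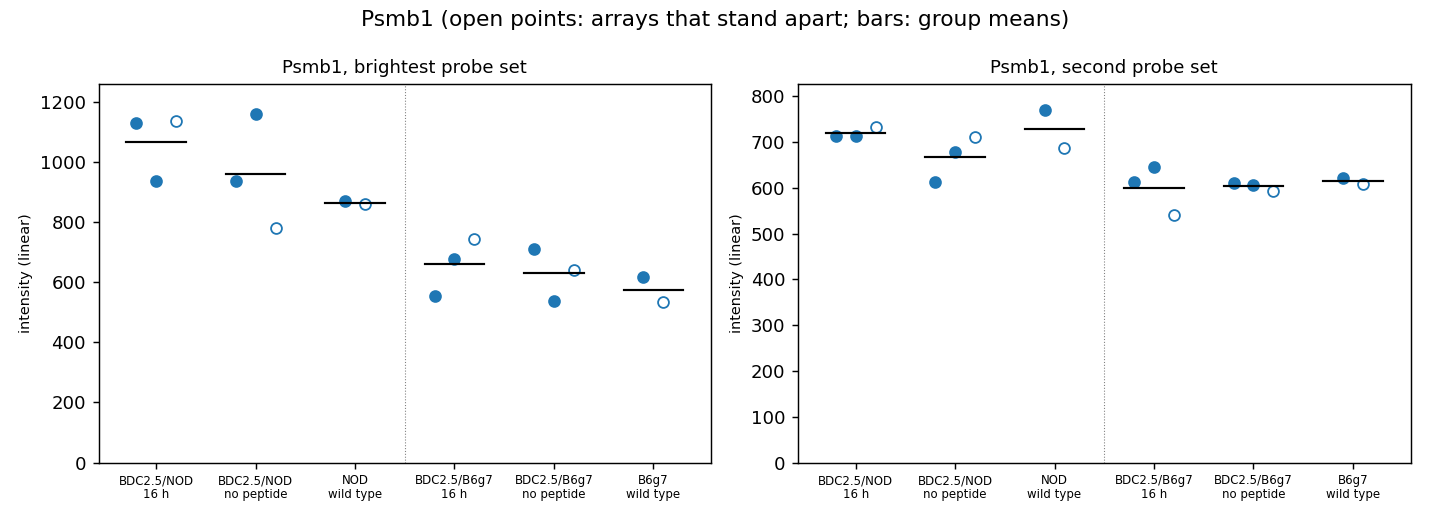
Linear intensity of Psmb1 in each array (points) by its brightest and its second probe set, with group means as bars and open points for the arrays that stood apart. By the brightest probe set the 8 NOD arrays lie between 782 and 1158, above the 8 B6g7 arrays at 534 to 743, and by the second the strains overlap.

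The inducible subunits were lower on average in NOD, within their spread. Without peptide all 3 had a lower fitted mean in NOD, with a median of -0.44 against 0.03 over all genes. At 16 h all 3 were again lower, with a median of -0.35, but without array 3 of BDC2.5/B6g7 at 16 h the differences there were 0.10 for Psmb8, 0.07 for Psmb9 and -0.08 for Psmb10. Here and below, such values without that array keep array 3 of BDC2.5/NOD at 16 h, which also stood apart. All 3 were lower too among wild-type cells, with a median of -0.22. Over the 8 arrays a strain, Psmb9 had a lowest, median and highest reading of 295, 391 and 484 in NOD, against 380, 448 and 986 in B6g7. Psmb8 had 1186, 1565 and 1945 in NOD, against 1530, 1730 and 2539 in B6g7. Psmb10 had 234, 507 and 628 in NOD, against 376, 550 and 1097 in B6g7. The strains overlapped for each of them. Averaged over settings, Psmb9 differed by -0.36 ± 0.20 (adjusted p = 0.998 in limma), Psmb10 by -0.35 ± 0.23 and Psmb8 by -0.22 ± 0.15. Without array 3 of BDC2.5/B6g7 at 16 h these were -0.23, -0.25 and -0.15.

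Marker sums of some other cells differed between the strains as well. The sum of the 13 myeloid and dendritic markers was 700 to 951 in BDC2.5/NOD at 16 h, against 1426 to 1871 in BDC2.5/B6g7 at 16 h. Without peptide it was 705 to 1022 in BDC2.5/NOD, against 988 to 1388 in BDC2.5/B6g7, and in wild-type cells 710 to 926 in NOD, against 1121 to 1463 in B6g7. The myeloid and dendritic ranges overlapped without peptide and not in the other settings. Of the 13 markers 8 lay below the median of all probe sets. Over all arrays Apoe ran from 102 to 971 and Ctss from 41.2 to 697, wider than any other marker of the list. Csf1r ran from 35.5 to 47.9. B cell, thymic epithelium and erythroid sums overlapped between the strains in each setting. The NK and innate lymphocyte sum was 329 to 398 in BDC2.5/NOD without peptide, against 415 to 618 in BDC2.5/B6g7. The mesenchyme and endothelium sum was 697 to 766 in wild-type NOD, against 791 to 794 in wild-type B6g7. Both overlapped in the other settings. The part of any of these cells in the strain differences of the inducible subunits, the activators and the interferon genes was not tested.

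The 3 activators were also lower in NOD in each setting, with medians of -0.15 at 16 h, -0.23 without peptide and -0.04 for wild-type cells, and none had an unadjusted p under 0.05. Without array 3 of BDC2.5/B6g7 at 16 h, the differences at 16 h were 0.005 for Psme1, -0.03 for Psme3 and 0.11 for Psme4. Over all 46 genes, 28 were then higher in NOD at 16 h and 18 lower, against 20 and 26 with it. Psme1 read 358 to 917 in NOD, against 443 to 1663 in B6g7. Psme4 read 77.2 to 241 in NOD, against 87.8 to 268 in B6g7, and Psme3 31.1 to 73.9 in NOD, against 36.9 to 67.4 in B6g7. The ranges of the strains overlapped almost whole for Psme3 and Psme4.

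Interferon and antigen processing genes leaned the same way between strains. Of 27 measured, 25 had a lower fitted mean in NOD without peptide, with a median of -0.27, whereas 60.2% of all genes were higher in NOD. There 0 were called by limma and 2 had an unadjusted p under 0.05, both lower, against 3.42% of all genes. At 16 h 25 were lower, with a median of -0.34, but without array 3 of BDC2.5/B6g7 at 16 h 14 were higher and 13 lower, with a median of 0.07. In wild-type cells 23 were lower, with a median of -0.19. Of all genes 51.2% were higher in NOD at 16 h and 42.4% in wild-type cells. Igtp, an interferon-inducible GTPase, differed by -1.55 ± 0.63 without peptide (adjusted p = 1 in limma), and Irf9, a transcription factor of interferon signalling, by -1.11 ± 0.38 (adjusted p = 0.846). At 16 h, where array 3 of BDC2.5/B6g7 enters, Irf8 differed by -1.69 ± 0.67 (adjusted p = 0.72).

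A set of 34 constitutive genes did not keep 1 direction across settings. It held the Psma, Psmb1 to Psmb7, Psmc and Psmd genes, the assembly factors Psmd5, Psmd9 and Psmd10 among them. Their median strain difference was -0.05 at 16 h, -0.04 without peptide and 0.09 for wild-type cells, with 16, 12 and 23 of the 34 higher in NOD. These were 47.1%, 35.3% and 67.6%, against 51.2%, 60.2% and 42.4% of all genes. Without peptide the set thus leaned lower in NOD, like the inducible subunits, and in wild-type cells higher. Among pairs of BDC2.5 groups without overlap, 1 proteasome gene, Psmb1, was higher in each NOD array without peptide, against 3.01% of all genes, and 0 were lower, against 2.39%. At 16 h 3 were higher in each NOD array, namely Psmb1, Psmc3ip and Psmd10, against 6.47% of all. There 2 were lower, Psmb3 and Psmd11, against 5.67%. Psmd10, an assembly chaperone also called gankyrin, differed at 16 h by 0.43 ± 0.25 (adjusted p = 1 in limma), and Psmd11, a scaffold subunit of the regulatory particle, by -0.42 ± 0.25 (adjusted p = 1).

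**Figure D4:**
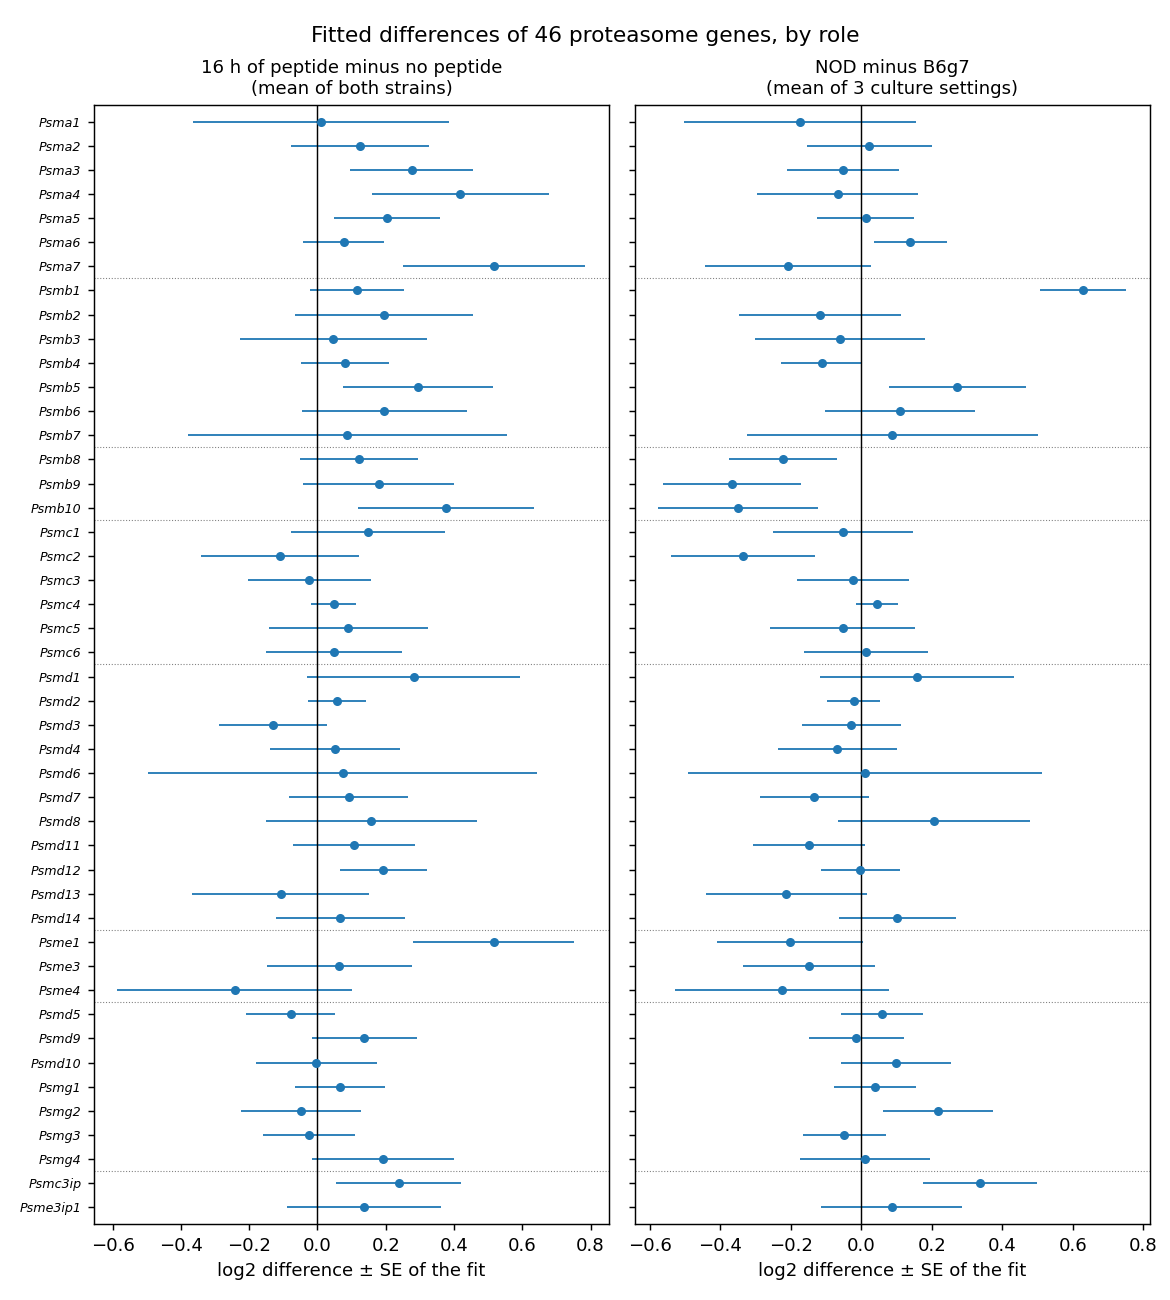
Fitted log2 differences (points) with the SE of the fit (lines) for the 46 genes in order of role, for peptide at 16 h minus no peptide, averaged over strains, and for NOD minus B6g7, averaged over 3 culture settings. Psmb1 stands at 0.63 in the strain panel, while Psmb8, Psmb9 and Psmb10 lie at -0.22, -0.36 and -0.35.

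Each inducible subunit was also set against the subunit it replaces, as the log2 difference of their readings within an array. Only changes in such a difference can be read, since it compares different probes. With peptide, averaged over strains, Psmb8 minus Psmb5 differed by -0.17, Psmb9 minus Psmb6 by -0.02 and Psmb10 minus Psmb7 by 0.29. Psmb10 minus Psmb7 was 0.81 ± 1.03 in BDC2.5/NOD at 16 h and 0.72 ± 1.69 without peptide (SD, n = 3 each), so the replicates varied more than the peptide states. The arrays that stood apart held -1.36 to 1.38, against 1.03 to 2.15 in the other 10.

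Between strains the group means of the same differences were lower in NOD for each pair and setting, but not each array was. Psmb9 minus Psmb6 differed by -0.45 at 16 h, -0.59 without peptide and -0.38 in wild-type cells. Psmb8 minus Psmb5 differed by -0.35, -0.38 and -0.76 in the same order, and Psmb10 minus Psmb7 by -0.69, -0.28 and -0.34. In wild-type cells Psmb10 minus Psmb7 was 1.194 and -1.363 in NOD, against 1.031 and -0.515 in B6g7. Array 1, which did not stand apart, was thus higher in NOD. The wild-type value of Psmb8 minus Psmb5 came more from Psmb5, which differed by 0.562, than from Psmb8, which differed by -0.194. In BDC2.5/B6g7 at 16 h Psmb9 minus Psmb6 was -0.38, -0.95 and 0.69 in arrays 1, 2 and 3. Without array 3 the strain difference at 16 h was -0.002 for Psmb9 minus Psmb6, -0.21 for Psmb8 minus Psmb5 and -0.75 for Psmb10 minus Psmb7. Without peptide, Psmb9 minus Psmb6 was -0.72 ± 0.41 in BDC2.5/NOD and -0.13 ± 0.07 in BDC2.5/B6g7 (SD, n = 3 each). These differences rest on the same readings as the single-gene values above.

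The third question was the effect of the BDC2.5 receptor itself, from BDC2.5 cells without peptide against wild-type cells. In NOD 0 of 46 genes were called by limma, against 0.0564% of all probe sets, and 0 had an unadjusted p under 0.05, against 1.76% of all genes. In B6g7 0 were called, against 0.0805%, and 0 had an unadjusted p under 0.05, against 1.28%. In NOD 27 of 46 were higher in BDC2.5 cells, with a median of 0.02 against 0.04 over all genes. In B6g7 38 of 46 were higher (82.6%), against 45.5% of all genes, with a median of 0.11. Array 2 of the 2 wild-type arrays and array 3 of the 3 BDC2.5 arrays in a group stood apart. This comparison therefore weights such arrays unequally, and the part of that imbalance was not tested.

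Psme1 averaged 682 ± 140 in BDC2.5/B6g7 without peptide (SD, n = 3) and 476 ± 47 in wild-type B6g7 (SD, n = 2), a log2 difference of 0.50 ± 0.37. In NOD it averaged 605 ± 221 in BDC2.5 cells and 471 ± 68 in wild-type cells, a difference of 0.29 ± 0.37. Psmb10 differed by 0.52 ± 0.41 in B6g7 and by 0.30 ± 0.41 in NOD. The samples without peptide are those of the peptide comparison too.

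Several proteasome genes varied most across the arrays that stood apart, which a component of these same data set apart, so the differences are given as a description. Psmb1, Psmb9 and Psme1 had mean log2 differences of -0.03, 0.07 and -0.21 there, but these averaged groups that went opposite ways. By group they ran from -0.41 to 0.28, -0.52 to 1.25 and -1.02 to 1.09 in the same order. Psmd6, a regulatory particle subunit, was 3.61-fold higher in them on average over the 6 groups. It read 719 in array 3, against 239 and 218 in arrays 1 and 2, of BDC2.5/NOD at 16 h, and 928 in array 2, against 149 in array 1, of wild-type NOD. Psmb7 was 2.77-fold higher, Psma1 2.14-fold and Psme4 1.99-fold. In the other direction Psmd8 was lower, with a log2 difference of -0.89, as were Psmd1 (-0.81), Psmb3 (-0.69) and Psmb6 (-0.64).

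In all, 9 genes had their group's highest reading in the array that stood apart in 6 of 6 groups (19.6%), against 11.2% of all genes. These were Psma1, Psma2, Psmb2, Psmb7, Psmc2, Psmc5, Psmd6, Psmd14 and Psme4. Another 5 had the lowest reading there in 6 of 6 groups (10.9%), against 11.2%, namely Psmc3, Psmc3ip, Psmd8, Psme3ip1 and Psmg4. Psmb6 and Psmb7, both catalytic subunits of the constitutive core, went opposite ways across these arrays. The actin difference given above moved with the same arrays and its part was not tested.

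The 3 genes with the smallest within-group SD were Psmc4, an ATPase with readings of 19.3 to 24.3 and an SD of 0.11 log2 units, Psmd2, a scaffold subunit of the regulatory particle with readings of 42.9 to 55.8 and an SD of 0.13, and Psma6, an alpha subunit with readings of 2383 to 3399 and an SD of 0.15. The SD was 1.14 for Psmd6 and 0.93 for Psmb7, at the 99.5 and 98.7 percentiles of all genes. Such replicate spread, with 2 or 3 arrays a group, limits what these comparisons can show. Psma4, with a peptide difference of 0.42 ± 0.26, was not separable from 0 in the fit without a block. With the replicate number as a block Psma3, Psma4, Psma7 and Psme1 had an unadjusted p under 0.05, and 0 genes were called. The share of all genes under the block is not given here, so this count cannot be read as particular to proteasome genes.

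The 22 measured proteasome cofactors, which handle ubiquitin, assemble proteasomes or control their genes, gave 0 calls in limma in any comparison. Of all probe sets 0% to 1.3% were called. At an unadjusted p under 0.05 they gave at most 2 genes a comparison. That count was reached between strains without peptide, with 1 higher and 1 lower in NOD, against 3.42% of all genes. With peptide 15 of 22 were higher in the mean of both strains, against 43.0% of all genes, with a median of 0.05. None of them had an unadjusted p under 0.05, against 3.84% of all genes. Ufd1, which delivers ubiquitinated proteins, differed by -0.20 ± 0.12. Between strains Vcp, the segregase that unfolds ubiquitinated proteins ahead of the proteasome, differed by 0.52 ± 0.14 on the average of 3 settings (adjusted p = 0.113 in limma). Nfe2l2, a stress factor that raises proteasome genes, had a peptide difference of 0.49 ± 0.26 in BDC2.5/NOD and -0.46 ± 0.26 in BDC2.5/B6g7, and the strain difference of that response was 0.95 ± 0.37 (adjusted p = 1).

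Probe sets of 1 gene could disagree. For 38 genes there was a single probe set, and 8 genes were read by a probe set whose ID marks it as shared or less specific: Psma3, Psmb4, Psmb5, Psmb7, Psmc3, Psmd9, Psmd12 and Psmg3. In the mean peptide response the probe sets of Psmd11 spanned 0.52 log2 units, from -0.24 ± 0.12 to 0.28 ± 0.16, with 0.11 ± 0.18 for the brightest. By the second brightest Psmd11 read 254, 153.2 and 278 in BDC2.5/B6g7 at 16 h, against 122, 152.5 and 147 without peptide, so that each peptide array was above those without, with a difference of 0.66 ± 0.23 (adjusted p = 1 in limma). Those of Psme1 spanned 0.55. In the strain difference without peptide those of Psmb1 spanned 0.58. The mean log2 reading of 4 genes, Psmc3ip, Psmc4, Psmd2 and Psme3, lay below the median of all probe sets, where a change is harder to read.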

How the data were processed

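Gene expression was measured on 16 Affymetrix mouse arrays. The table deposited by the authors holds 1 linear intensity per probe set and array. The array medians differed by at most 0.11 log2 units, so the deposited scale was kept. The methods of scaling, background correction and summary are not given in the sources used here. Log2 of the intensity was used, without a pseudocount.

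Of 12488 probe sets, 66 controls were left out and 12422 tested. The platform annotation gave 10833 of them 1 gene, 396 several and 1193 none. All 46 member gene IDs matched the mouse RefSeq table under the same symbols. Promoter sequences were from RefSeq (GRCm38.p6).

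Differences were fitted over all 16 arrays with limma 3.58.1 (R 4.3.3; lmFit and contrasts.fit, then eBayes with its trend on intensity) and 1 mean per group, which gave 10 residual and 3.6 prior degrees of freedom. The fit was tested on simulated data. Benjamini-Hochberg adjustment ran over all 12422 probe sets within each of 9 comparisons, tests were two-sided, and the threshold for a call was an adjusted p of 0.05. A value after ± is the SE of the fit for a fitted difference and the SD for a group mean. The number of arrays limits the precision.

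The members, gene lists and alternatives were chosen with earlier results of these data known. The rule for named genes took Psmb5 to Psmb10, Psme1, Psme3 and Psme4, every called member, the 3 largest rises and falls at an unadjusted p under 0.05, members whose probe sets differed by over 0.5 log2 units, and up to 4 genes of each list by p. Other genes were named after their values were seen. The comparison of strains averaged over 3 settings was added after seeing the data.

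Arrays carry a number in their titles. Deviations from the group means correlated, across probe sets, between BDC2.5 arrays of the same number, at 0.608, 0.581 and 0.793 between peptide states in NOD and 0.639, 0.249 and 0.6 in B6g7. Between strains they were 0.577, 0.234 and 0.569 at 16 h and 0.777, 0.165 and 0.842 without peptide. Against wild-type arrays they were 0.678 and -0.499 in NOD and 0.695 and 0.058 in B6g7. The arrays that stood apart share their number and can by themselves give positive values, and the labels state no pairing. A fit with that number as a replicate block was tried.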

Additional observations from a re-analysis of the deposited data

Results flagged for a closer look

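Psmd10, an assembly chaperone of the regulatory particle, had opposite peptide differences in the strains. It read 72.6, 75.9 and 105 in BDC2.5/NOD at 16 h, against 55.5, 84.9 and 79.7 without peptide, and each peptide array was above the mean of those without on the log2 scale (72.1 as an intensity). In BDC2.5/B6g7 it read 50.4, 71.1 and 66.6 at 16 h, against 59.6, 80.6 and 77.9 without peptide, and each peptide array was below the mean of those without on the same scale (72.1). The peptide difference was 0.21 ± 0.25 in BDC2.5/NOD and -0.22 ± 0.25 in BDC2.5/B6g7 (log2, SE). The strain difference of the response was 0.43 ± 0.35 (adjusted p = 1 in limma), so it did not pass the test, and the arrays of the peptide states overlapped in both strains. By the arithmetic mean of BDC2.5/NOD without peptide, 73.35, the peptide array at 72.6 was below it. Opposite signs were not particular to Psmd10: Psmb7 and Psmb2 had them too, with strain differences of 0.472 ± 0.936 and -0.444 ± 0.52. The share of all genes with such a pattern is not given here.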

How the results depend on the processing

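Every comparison was refitted under 25 alternatives: 16 that left out 1 array each and 9 others (the replicate number as a block, without the 6 arrays that stood apart, those 6 as a block, quantile normalization, arrays centred on their median, probe sets above the 40th percentile of intensity, a pseudocount of 16, eBayes without a trend, and the mean of a gene's probe sets). The filter on dim probe sets left 45 of the 46 genes. In the 9 planned comparisons 0 proteasome genes were called under each alternative. In the strain difference averaged over settings, which called 1 gene, Psmb1, the count was 0 without the 6 arrays that stood apart and 0 with the mean of all probe sets. Over the fits that left out 1 array it ranged from 0 to 1, with 0 without wild-type NOD array 1 or wild-type B6g7 array 2. Psmb1 was called in 21 of the 25 fits, and its averaged difference ranged from 0.26 to 0.68.

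With the replicate number as a block, 0 proteasome genes were called in each of the 9 comparisons and 1, Psmb1, in the averaged strain difference, so the block changed no call. At an unadjusted p under 0.05 it gave 4 genes in the mean peptide response (Psma3, Psma4, Psma7 and Psme1), against 1 without it. Whether the block raised the count over all genes as well is not given here.

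The median peptide difference of the inducible subunits was 0.18, and -0.13 without the 6 arrays that stood apart, with a range of 0.01 to 0.31 over the fits that left out 1 array. That of the 34 constitutive genes, Psmd5, Psmd9 and Psmd10 among them, was 0.09, and 0.035 without those 6. The number of arrays and the spread between replicates limit these values, and the dim probe sets of Psmc4, Psmd2, Psme3 and Psmc3ip limit those of their genes.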
